A study of Homo sapiens with 12 samples.

Results

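The very long genes described here are the rows of the deposited count table whose exons all lie on 1 chromosome and whose outermost exons are at least 500000 bases apart. Of 26485 rows, 415 met that distance, and 5 of them were left out by name, most of these starting with CDH or COL. The remaining 410 rows were then chosen by their counts: 174 with 10 or more counts in at least 3 of the 12 libraries were kept as members, and 236 were not, 139 of which had 0 counts in every library. The count values that chose the members are given as a description. Just inside the distance limit were PPFIA2 (501355 bases), AKAP6 (503789) and ERC1 (504725), and just outside it were DIAPH3 (498396), CPQ (498276) and ITPR2 (497861). The third-highest count was 10 in C4orf22, GRIK2, HS6ST3 and PARK2, just inside the count limit, and it was 9 in LSAMP, CSMD2 and CLSTN2 and 8 in LRP1B, just outside.

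The libraries come from COV362 and PEO1, established human cell lines of high-grade serous ovarian carcinoma, both labelled parental. Each line was given 20 nM prexasertib, which inhibits CHK1 and CHK2 (checkpoint kinases of the DNA damage response), or the vehicle DMSO, for a time that the labels leave out. Each of the 4 groups holds 3 replicates lettered A, B and C: COV362 prexasertib, COV362 DMSO, PEO1 prexasertib and PEO1 DMSO. Nothing in the labels says that replicates were separate cultures, so p-values reflect nothing more than the spread of these libraries, which may be technical. In bulk RNA, fewer cells of a kind and less RNA per cell cannot be told apart.

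A gene's transcribed length is mostly intron. RNA polymerase II needs hours to cross the longest human genes, so their transcription can run into DNA replication, and several of them contain common fragile sites, regions that break or fail to condense when replication is slowed. CHK1 restrains origin firing and protects stalled forks, and CHK1 inhibitors raise replication stress. Many very long genes encode adhesion molecules, ion channels and scaffolds known best from neurons and muscle.

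Library totals ranged from 9390790 counts in COV362 DMSO A to 18262805 in COV362 DMSO B, and PEO1 libraries held 15541151 to 18260493. All 7 epithelial ovarian carcinoma markers checked were above 1 CPM (counts per 1000000, scaled by the trimmed mean of M-values) on average in every group, and their summed level was 2286 to 7648 CPM over the libraries. Fibroblast markers summed to at most 1.37 CPM, leukocyte markers to at most 5.16 CPM and neuron markers to at most 7.23 CPM. The defining fibroblast gene LUM was at 0 in every group. The 3 endothelial markers summed to 46.5 to 51.0 CPM in COV362 prexasertib and 73.8 to 88.2 CPM in COV362 DMSO, nearly all of it CDH5, and to 1.32 to 3.62 CPM in PEO1 prexasertib and 6.43 to 7.38 CPM in PEO1 DMSO. The part of that shift in the results on very long genes was not tested.

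Not every row that met the distance rule is a long gene. In 9 of the 174 members the exons join separate loci: LOC645166, SMG1P2, ICOSLG, C21orf33, PWP2, SIK1, CBS, CBWD5 and F8A1. CBS, for example, spans 36631493 bases as listed but 23683 bases in RefSeq. The other 165 lie at 1 locus, and the 164 of them found in RefSeq were all at least 500000 bases long there. A further row carried a name that a spreadsheet had turned into a date, "1-Mar". Its exons at chr4:163524298-164383255 (hg38) lie inside MARCHF1, which encodes a membrane ubiquitin ligase, and it is called the MARCHF1 row here. Of the 174 members, 172 passed the edgeR filter on low counts, all but C4orf22 and GRIK2. A gene that passed only through the group where it was high had to differ there, so counts over the tested members are descriptions.

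The 165 genes had a median span of 686.825 kb, against 27.344 kb in the 13847 other tested genes on 1 sequence. Their exons added up to a median of 6770 bases, against 3206, so exons filled 0.907% of the span, against 11.7%. A median of 23 exon blocks stood against 9 in the other genes. Of the 165, 27 spanned over 1000000 bases, led by PTPRD (2298 kb), DMD (2220 kb) and DLG2 (2172 kb). They were most numerous on chromosome 3 (21 genes), chromosome 7 (17) and chromosome 1 (13).

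Most very long genes were weakly expressed. The median level per kilobase of exon (RPKM, which is CPM divided by exon length in kilobases) was 0.938, against 5.87 in the other tested genes, and the median level per library was 6.45 CPM, against 21.0 CPM. The 5 with the highest level per length were FAF1, ADK, PARD3, EXOC4 and GMDS. FAF1, which encodes a FAS-associated adaptor of ubiquitin-dependent degradation, had 40.4 RPKM in COV362 prexasertib and 54.9 in COV362 DMSO, and 21.0 in PEO1 prexasertib and 31.2 in PEO1 DMSO. ADK encodes adenosine kinase and had between 22.8 and 34.7 RPKM in the 4 groups. PARD3 encodes a cell polarity scaffold and had 21.5 to 30.0 RPKM, EXOC4 encodes an exocyst subunit and had 15.7 to 24.5 RPKM, and GMDS encodes the first enzyme of GDP-fucose synthesis and had 11.8 to 17.7 RPKM. At the other end, 19 of the 165 averaged under 0.1 RPKM over the libraries. In all 12 libraries, 107 of the 174 members had 10 or more counts, 10 members reached that count only in COV362 libraries and 10 only in PEO1 libraries. Within COV362, 8 members reached 10 counts in prexasertib libraries only and 2 in DMSO libraries only. Within PEO1 these numbers were 9 and 4.

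The counts did not fall evenly over the letters. Of all counts in a library, the 165 genes held 0.169% (A), 0.242% (B) and 0.209% (C) in COV362 prexasertib, against 0.227%, 0.345% and 0.282% in COV362 DMSO. In both COV362 groups A was lowest and B highest, and the prexasertib library was below its DMSO library at each letter although the groups overlapped. PEO1 prexasertib libraries held 0.218%, 0.266% and 0.227%, against 0.225%, 0.255% and 0.277% in PEO1 DMSO, and here the groups overlapped with no common order at the letters. UTRN, the autosomal relative of dystrophin that anchors the cytoskeleton, shows the pattern of letters. It had 24.8, 67.1 and 46.4 CPM in COV362 prexasertib A, B and C, against 53.8, 147 and 78.3 CPM in COV362 DMSO.

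**Figure D1:**
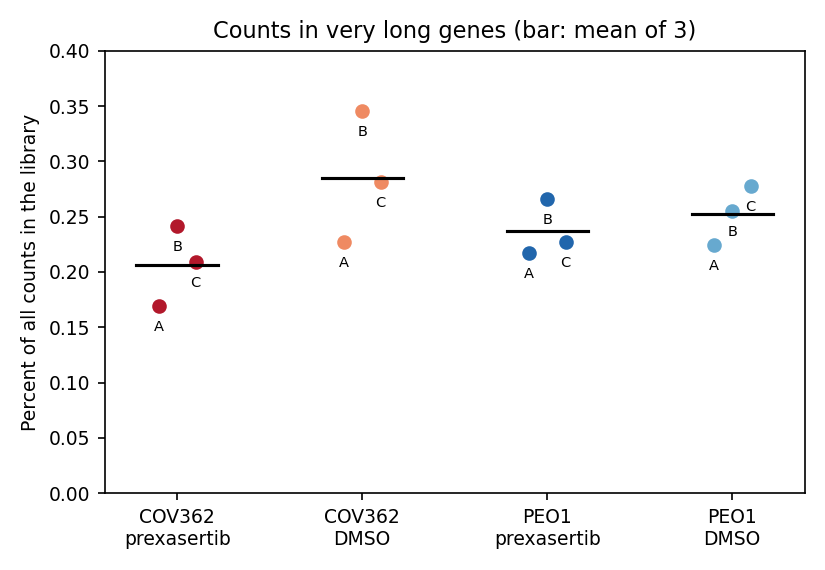
Percent of all counts in a library (y axis) that fell in the 165 very long genes at 1 locus, for the 3 libraries of each group (points, labelled by letter) with their mean (bar). In COV362 each prexasertib library lies below the DMSO library of its letter (0.169, 0.242 and 0.209% against 0.227, 0.345 and 0.282%), while the PEO1 groups overlap.

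The first comparison asks what prexasertib did to these genes in COV362. Most values lay below 0, although no member passed the test: the median log2 fold change of prexasertib against DMSO was -0.44 over the 163 tested genes at 1 locus, with quartiles of -0.72 and -0.16, against a median of -0.01 over all 14498 genes tested, and 133 of the 163 were below 0. No member passed edgeR's quasi-likelihood F-test in either direction with a BH-adjusted p (Benjamini-Hochberg, across every tested gene) under 0.05, where 0.607% of all genes were called higher and 0.221% lower, 0.828% in all. At an unadjusted p under 0.05, 7 of the 172 tested members were higher and 51 lower. DESeq2 called 1 higher and 16 lower of the 148 to which it gave an adjusted p, and limma-voom called 0 higher and 1 lower. The prexasertib and DMSO libraries did not overlap in 6 members that were higher and 50 that were lower, which is 3.49% and 29.1% of 172, against 6.82% and 7.63% of all genes tested.

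The letters tie the COV362 libraries together: deviations from the group means correlated at 0.41, 0.42 and 0.13 between libraries of the same letter. With the letters as a block, 2 members were called higher and 39 lower, against 4.2% and 5.45% of all genes tested (9.65% in all). Members called lower in that fit came to 22.7% of 172. Its block is 1 effect per letter shared by all 12 libraries, although the PEO1 letters did not pair the libraries by the rule given below. A block within each line called 2 higher and 50 lower in COV362, against 5.74% and 7.9% of all genes tested. Without COV362 DMSO A the unblocked fit called 2 members, without COV362 prexasertib A it called 1, and without COV362 prexasertib B it called 1. With exon length corrected but no block, 1 was called higher and 5 lower.

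The largest blocked decreases among members called in that fit and averaging at least 1 CPM in COV362 were those of RIMS1, SOX5, FAT3, DNM3, PTPRG and ANK3. FAT3, an atypical cadherin of planar polarity, had 16.4, 34.2 and 23.4 CPM in prexasertib libraries A, B and C, against 29.5, 93.6 and 47.2 CPM in DMSO. Each prexasertib library lay below its DMSO partner, although prexasertib B exceeded DMSO A. The blocked log2 fold change was -1.14 ± 0.16 (SE; adjusted p = 6.5e-05), against an adjusted p of 0.165 without the block.

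PTPRG encodes a receptor tyrosine phosphatase and is listed among the common fragile site genes. Its level was 10.7, 26.5 and 21.1 CPM in prexasertib, against 19.6, 69.1 and 40.2 CPM in DMSO, again lower at each letter with overlapping groups, and the blocked log2 fold change was -1.09 ± 0.17 (adjusted p = 0.000201). ANK3, ankyrin G, which anchors channels and adhesion molecules to spectrin, had 10.4, 20.7 and 14.95 CPM in prexasertib, against 20.1, 47.0 and 29.1 CPM in DMSO. Its blocked change was -1.05 ± 0.16 (adjusted p = 0.000175).

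The other named decreases were in genes of lower level or wider spread. SOX5, a transcription factor of chondrocyte and neural development, had 2.13, 3.95 and 4.77 CPM in prexasertib, against 6.41, 14.95 and 6.19 CPM in DMSO, with no overlap (blocked change -1.302 ± 0.37, adjusted p = 0.0305). DNM3, a dynamin of membrane fission, had 2.29, 2.47 and 1.94 CPM in prexasertib, against 3.87, 5.97 and 4.69 CPM in DMSO, with no overlap (-1.12 ± 0.33, adjusted p = 0.0363). RIMS1, a scaffold of the presynaptic active zone, had 0.328, 0.925 and 1.30 CPM in prexasertib, against 1.57, 3.18 and 2.998 CPM in DMSO (-1.64 ± 0.50, adjusted p = 0.0402). RIMS1 and DNM3 lost the call when exon length was corrected as well (adjusted p = 0.0605 and 0.063).

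PARD3 and FAF1, among the members with the highest level per length, were also called lower with the block. PARD3 had 116, 151 and 129 CPM in COV362 prexasertib, against 172, 204 and 177 CPM in COV362 DMSO, with no overlap between the groups. Its log2 fold change was -0.48 ± 0.12 (adjusted p = 0.0952 without the block and 0.000991 with it). FAF1 had 109, 112 and 92.1 CPM in prexasertib, against 164, 129 and 133 CPM in DMSO, and the blocked adjusted p was 0.00449. The only increases called with the block were those of CREB5, at 0.80, and RELN, at 2.96 on the log2 scale (adjusted p = 0.0109 and 0.0493). RELN encodes the secreted matrix protein reelin and rested on 35 counts in the prexasertib libraries and 4 in the DMSO libraries. In both lines only prexasertib libraries reached 10 counts of RELN, which made it a member, so its call is given as a description.

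In COV362 the median change descended with genomic span over all genes on 1 sequence. The median log2 change was 0.10 in 3322 genes under 10 kb, 0.02 in 6029 genes of 10 to 50 kb, -0.10 in 2203 genes of 50 to 100 kb, -0.19 in 1499 genes of 100 to 200 kb, -0.29 in 790 genes from 200 kb up to that limit and -0.44 in the 163 very long genes. In the blocked fit, 1.44, 2.6, 6.63, 14.6, 20.4 and 23.9% of these classes were called lower. The order of the medians was the same at each letter. At letters A, B and C, 118, 132 and 127 of the 163 very long genes were lower in the prexasertib library, with medians of -0.40, -0.40 and -0.34 on the log2(CPM + 0.5) scale.

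Genes of longer span also had more exon sequence, and exon length moved with the result. With exon length corrected, the 6 medians in COV362 were 0.01, 0.00, -0.07, -0.12, -0.21 and -0.35. In PEO1 the corrected medians were -0.08, 0.00, 0.00, -0.08, -0.16 and -0.26, so lower medians in the longest classes were not particular to COV362. The very long genes were also split into 4 classes of exon length with equal numbers of them. Their COV362 medians were -0.44, -0.41, -0.44 and -0.54, against 0.02, -0.11, -0.16 and -0.23 in genes of shorter span. Their PEO1 medians were -0.20, -0.08, -0.23 and -0.01, against -0.01, 0.07, 0.12 and 0.29. These classes are wide, the first running from 1090 to 4887 bases, and they do not match the level of expression. The parts of exon length and level in these differences were not tested. Among the 163 themselves, span and log2 change showed a Spearman correlation of -0.05 in COV362 and 0.08 in PEO1, given as a description across genes that share their libraries.

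**Figure D2:**
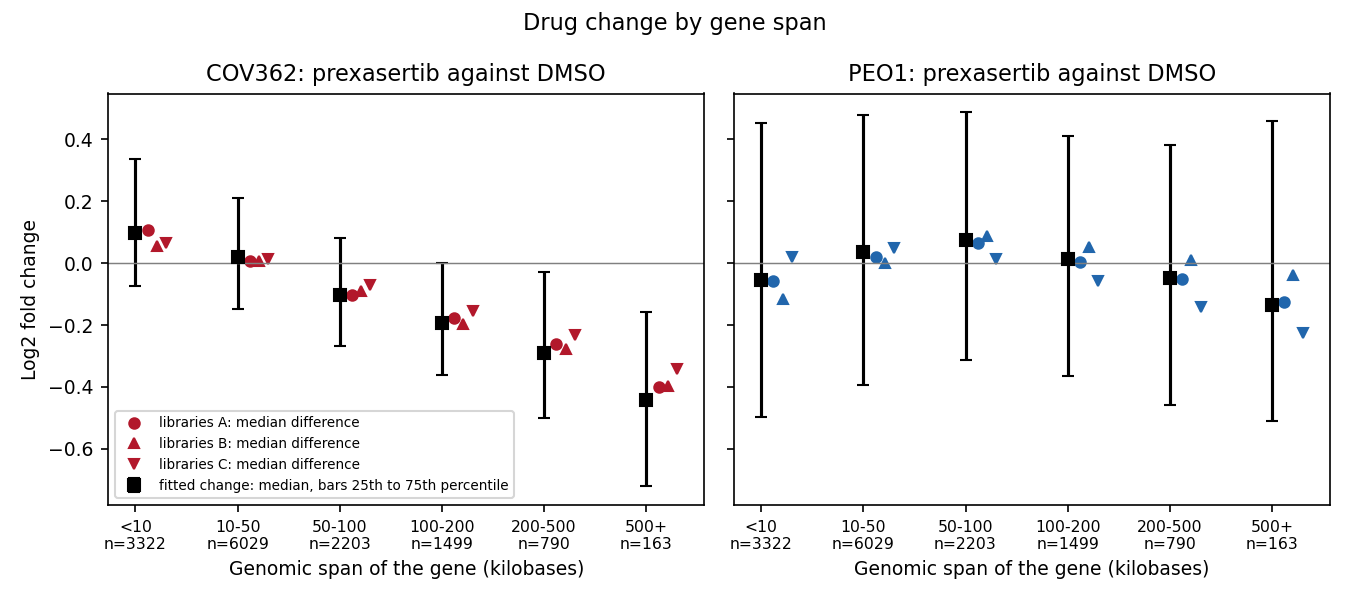
Log2 fold change of prexasertib against DMSO (y axis) by genomic span in kilobases (x axis, number of genes under each class), for COV362 (left) and PEO1 (right). Black squares are medians of the fitted change with bars from the 25th to the 75th percentile, and coloured points are medians of the differences between libraries of the same letter. In COV362 the fitted medians descend from 0.10 in the shortest class to -0.44 in the very long genes, and those at each letter descend as well, to -0.40, -0.40 and -0.34 at A, B and C, while in PEO1 they run from -0.06 through 0.08 to -0.14. Exon length is not corrected in either panel.

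In PEO1 very long genes were called in both directions, lower at a share near that of all genes tested and higher at a smaller share. Of 172 tested, 17 were called higher and 27 lower (9.88% and 15.7%), while 14.7% of all genes tested were called higher and 14.6% lower. Among the 163 at 1 locus these were 16 and 26. The median change was -0.14 (163 genes), against 0.01 over all genes tested, and the span classes had medians of -0.06, 0.04, 0.08, 0.01, -0.05 and -0.14. Correcting for exon length gave 17 higher and 42 lower, against 16 and 20.6% of all genes tested, and a median of -0.26. The prexasertib and DMSO libraries did not overlap in 28 members that were higher and 44 that were lower. These are 16.3% and 25.6% of 172, against 25% of all genes tested in each direction. Without PEO1 prexasertib B the median was -0.31 over the 173 members tested in that fit.

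LAMA2 and CREB5 had the largest increases in PEO1 among members averaging at least 1 CPM. LAMA2 encodes the laminin alpha-2 chain of basement membranes and lies at chr6:128883141-129516565 (hg38, outermost exons). Its level was 14.3, 10.9 and 14.8 CPM in PEO1 prexasertib A, B and C, against 3.002, 2.77 and 2.36 CPM in PEO1 DMSO. All 3 treated libraries were far above the untreated ones, and the log2 fold change was 2.29 ± 0.25 (SE, n = 3 each; edgeR adjusted p = 2.89e-05). CREB5, a leucine-zipper transcription factor of the CRE-binding family at chr7:28299321-28825894, had 34.5, 36.1 and 32.5 CPM in prexasertib, against 6.33, 7.27 and 8.91 CPM in DMSO. The libraries of each group lay close together, and the log2 change was 2.19 ± 0.21 (adjusted p = 1.45e-05).

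ADGRV1, the very large adhesion G-protein-coupled receptor of hair-cell and photoreceptor links, had 12.04, 20.4 and 12.1 CPM in PEO1 prexasertib, against 2.55, 3.8003 and 4.40 CPM in PEO1 DMSO (log2 change 2.04 ± 0.35, adjusted p = 0.000791). Library B was highest among the treated ones, and the groups did not overlap. MCTP1, a calcium-binding C2-domain membrane protein, had 5.58, 5.22 and 3.26 CPM in prexasertib, against 0.979, 1.09 and 1.54 CPM in DMSO (1.95 ± 0.39, adjusted p = 0.00211). HDAC9, a class IIa histone deacetylase that represses MEF2 targets, had 18.5, 22.9 and 21.4 CPM in prexasertib, against 2.81, 6.95 and 6.98 CPM in DMSO (1.90 ± 0.30, adjusted p = 0.000448). PCDH9, a protocadherin, had 2.99, 4.23 and 2.78 CPM in prexasertib, against 1.04, 0.597 and 1.15 CPM in DMSO (1.84 ± 0.55, adjusted p = 0.0226), and it lost the call when PEO1 DMSO A, B or C or PEO1 prexasertib B was left out.

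RELN, ERC2 and CNTN5 were also called higher, at levels where only the prexasertib libraries reached 10 counts. RELN had 85 counts over the PEO1 prexasertib libraries and 9 over the DMSO libraries, a log2 change of 3.19 ± 0.78 (adjusted p = 0.00748), and ERC2, a presynaptic active-zone scaffold, had 59 counts in prexasertib and 14 in DMSO (2.07 ± 0.47, adjusted p = 0.00512). CNTN5, a contactin of the immunoglobulin superfamily, had 72 counts in prexasertib and 12 in DMSO (2.54 ± 0.63, adjusted p = 0.00836) and lost its call without PEO1 prexasertib B. CNTN5 reached 10 counts in no library of the other groups, COV362 included. It was a member only through the group where it was high, so its call is given as a description. RELN reached 10 counts in no DMSO library of either line. Its membership came through prexasertib libraries alone, so its call is a description as well.

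Stronger genes among those that rose included NEGR1, a GPI-anchored neuronal adhesion molecule, with 53.0, 51.1 and 51.6 CPM in PEO1 prexasertib, against 25.5, 24.4 and 25.8 CPM in PEO1 DMSO (1.04 ± 0.15, adjusted p = 0.000304). The spread within each group was under 1 CPM (SD 0.998 and 0.709). SYNE1, the giant nesprin that ties the nucleus to actin, averaged 64.4 ± 16.8 CPM in prexasertib and 24.8 ± 4.17 CPM in DMSO (SD, n = 3 each; log2 change 1.38 ± 0.28, adjusted p = 0.00248). MAST4, a microtubule-associated kinase, averaged 33.5 ± 7.02 CPM in prexasertib and 12.8 ± 3.01 CPM in DMSO (1.39 ± 0.26, adjusted p = 0.00137).

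The 6 largest decreases called in PEO1 among genes at 1 locus averaging at least 1 CPM were those of ASTN2, SLIT3, SDK1, ELMO1, ARHGAP24 and KAZN. ASTN2, an astrotactin of neuronal migration at chr9:116425225-117415039, had 1.29, 0.604 and 1.39 CPM in PEO1 prexasertib, against 4.70, 3.53 and 2.97 CPM in PEO1 DMSO (log2 change -1.77 ± 0.34, adjusted p = 0.00172). SLIT3, a secreted ligand of ROBO receptors at chr5:168661733-169301129, fell to 3.46, 3.63 and 3.26 CPM in prexasertib, against 8.55, 11.1 and 12.6 CPM in DMSO (-1.64 ± 0.21, adjusted p = 9.07e-05). In both genes the groups were clearly apart. SDK1, an immunoglobulin-superfamily adhesion molecule of synaptic layers, had 0.294, 1.04 and 0.845 CPM in prexasertib, against 1.83, 1.85 and 2.80 CPM in DMSO (-1.56 ± 0.38, adjusted p = 0.0077).

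KAZN encodes kazrin, a protein of desmosomes and the cell cortex, and was the strongest gene among the 6 named decreases. It had 30.8, 26.7 and 34.6 CPM in PEO1 prexasertib, against 74.6, 78.7 and 75.4 CPM in PEO1 DMSO, a log2 change of -1.31 ± 0.14 (adjusted p = 3.26e-05). ELMO1, which with DOCK proteins activates Rac, had 3.17, 1.59 and 1.57 CPM in prexasertib, against 5.16, 5.75 and 5.61 CPM in DMSO (-1.38 ± 0.44, adjusted p = 0.0299). ARHGAP24, a GTPase-activating protein for Rac, had 0.587, 1.92 and 2.05 CPM in prexasertib, against 4.24, 3.85 and 3.35 CPM in DMSO (-1.32 ± 0.43, adjusted p = 0.0342). ELMO1 lost its call without PEO1 DMSO B or C or PEO1 prexasertib B or C, and ARHGAP24 without PEO1 DMSO A, B or C or PEO1 prexasertib A. Exons of SLIT3, KAZN and ELMO1 share bases with a gene on the opposite strand, and the kit does not keep strand, so part of their counts could belong to that gene.

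**Figure D3:**
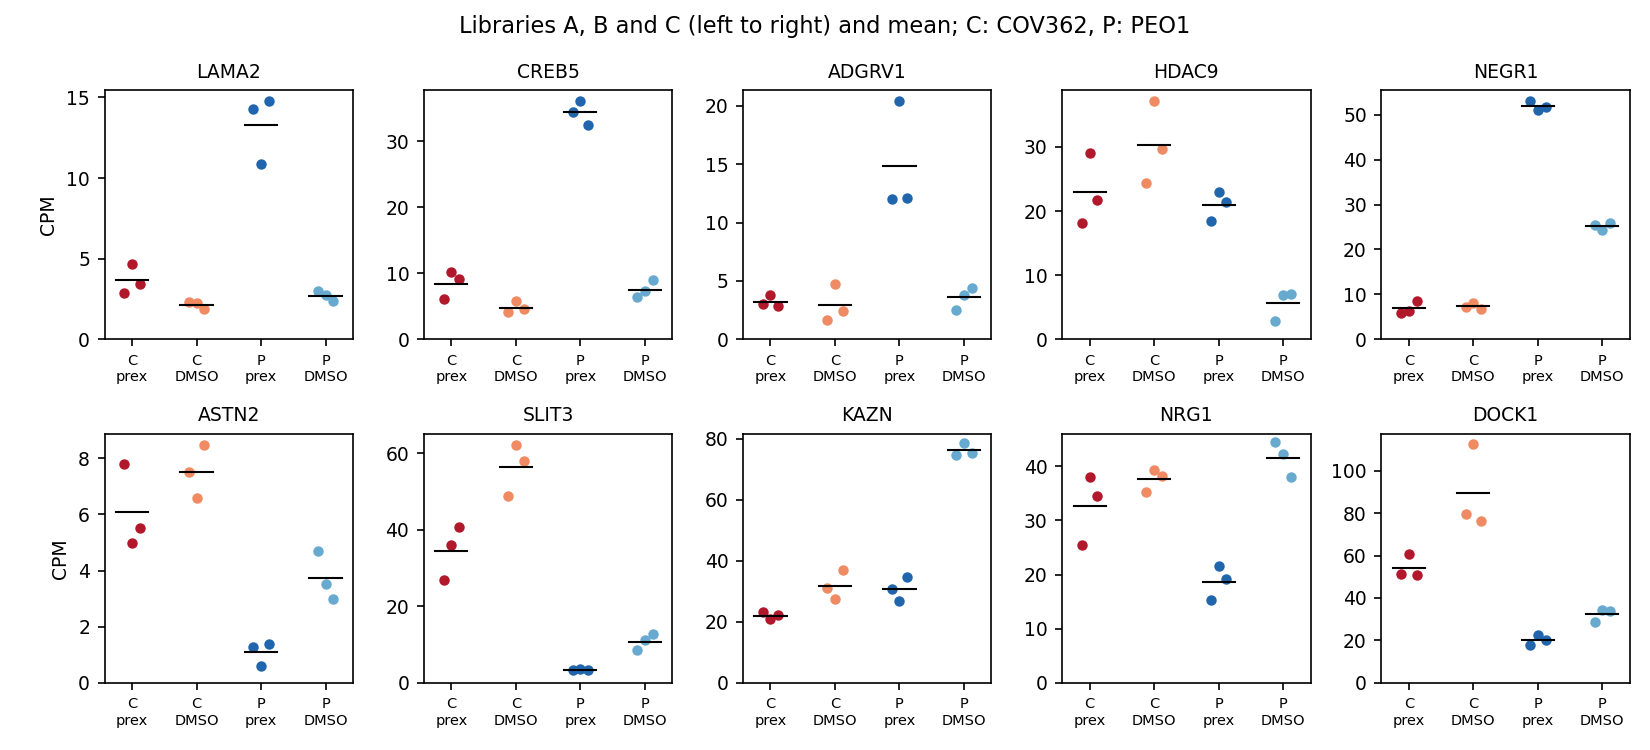
CPM (y axis of each panel, from 0) of 10 very long genes in libraries A, B and C from left to right (points) with the mean (bar), for COV362 (C) and PEO1 (P) with prexasertib (prex) left of DMSO. The top row holds genes called higher in PEO1, such as CREB5 at 32.5 to 36.1 CPM in prexasertib and 6.33 to 8.91 CPM in DMSO, and the bottom row genes called lower there, such as KAZN at 26.7 to 34.6 and 74.6 to 78.7 CPM.

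By role, the calls in PEO1 can be read against 14.7% higher and 14.6% lower of all genes tested. The 28 members for cell adhesion, axon guidance and synapse organisation had 3 higher (CNTN5, NEGR1, PCDH9) and 6 lower in PEO1 (SDK1, TENM4, ASTN2, SLIT3, SEMA5A, SHANK2), with a median of -0.12. TENM4, a teneurin of synaptic partner choice, averaged 2.45 ± 0.188 CPM in PEO1 prexasertib and 5.68 ± 1.49 CPM in PEO1 DMSO, and SHANK2, a postsynaptic scaffold, 14.6 ± 3.39 CPM in PEO1 prexasertib and 28.0 ± 5.26 CPM in PEO1 DMSO (SD, n = 3 each). SLIT3's receptors ROBO1 and ROBO2 are members too, and neither was called in PEO1. In COV362 the same 28 had a median of -0.51.

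Kinases, phosphatases, phosphodiesterases and small-GTPase regulators held 1 called higher (MAST4) and 8 called lower of 25 in PEO1, again against 14.7% and 14.6% of all genes tested, with a median of -0.40, and -0.47 in COV362. The 8 were NRG1, FGF12, FRMD4A, RGS7, DOCK1, ARHGAP24, ELMO1 and AGAP1. This list is broader than its name, since NRG1 is a growth factor and FGF12, FRMD4A and RGS7 are on it as well. The receptor phosphatases PTPRD, PTPRM and PTPRG were counted with the adhesion genes instead. The counts therefore describe the list and not the named role. DOCK1, the Rac exchange factor that pairs with ELMO1, had 17.7, 22.6 and 20.0 CPM in PEO1 prexasertib, against 28.9, 34.3 and 34.0 CPM in PEO1 DMSO (-0.69 ± 0.17, adjusted p = 0.00802). COV362 gave 51.3, 60.5 and 51.0 CPM of DOCK1 in prexasertib, against 79.6, 113 and 76.4 CPM in DMSO (-0.72 ± 0.17, adjusted p = 0.0616, and 0.000184 with the letters as a block). The groups of either line did not overlap, and the 2 changes differed by 0.04 ± 0.24. RGS7, which ends G-protein signals, averaged 5.17 ± 0.629 CPM in PEO1 prexasertib and 10.5 ± 1.76 CPM in PEO1 DMSO, and AGAP1, an Arf GTPase-activating protein of endosomes, 52.1 ± 4.44 CPM in PEO1 prexasertib and 74.5 ± 5.47 CPM in PEO1 DMSO.

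Of 14 regulators of transcription, chromatin and RNA, 2 were higher (ZBTB20, HDAC9) and 1 lower (SMYD3) in PEO1, where 14.7% and 14.6% of all genes tested were, with a median of 0.43, against -0.41 in COV362. SMYD3, a lysine methyltransferase, averaged 14.5 ± 0.786 CPM in PEO1 prexasertib and 24.9 ± 1.55 CPM in PEO1 DMSO. The 29 genes of cytoskeleton and membrane traffic had 3 higher (SYNE1, KIAA1217, ERC2) and 2 lower (SORCS2, DENND1A), the 20 enzymes and matrix genes 3 higher (LAMA2, RELN, CDKAL1) and 1 lower (GMDS), and the 12 tested ion channels and receptors 1 lower (KCNMA1). KCNMA1, the large-conductance calcium-activated potassium channel, averaged 40.7 ± 3.33 CPM in PEO1 prexasertib and 76.3 ± 12.03 CPM in PEO1 DMSO. In COV362 every role had a median below 0, between -0.33 for enzymes and matrix and -0.51 for adhesion, and none had a call without the block. The 9 rows that join separate loci had a median of 0.14 there, and 1 was called higher (CBWD5) and 1 lower (CBS) in PEO1.

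The 13 members listed here as common fragile site genes were FHIT, WWOX, PARK2, MACROD2, IMMP2L, DMD, DLG2, LARGE, NBEA, RORA, AUTS2, DPYD and PTPRG. The list was chosen by known role and may not hold every member at such a site. Without the block, none was called by edgeR, DESeq2 or limma-voom in either drug comparison or in the difference between the lines. At an unadjusted edgeR p under 0.05, 3 were lower in COV362 (AUTS2, DPYD, PTPRG), and 1 was higher (NBEA) and 1 lower (AUTS2) in PEO1. With the letters as a block, AUTS2, DPYD and PTPRG were called lower in COV362, 3 of 13, against 5.45% of all genes tested. That share was near the one of the very long genes as a whole, of which 39 of 163 (23.9%) were called lower in this fit. The same fit called NBEA higher and AUTS2 lower in PEO1, where the letters did not pair the libraries. In PEO1 it called 24% of all genes tested higher and 23.8% lower. In the difference between the lines it called DPYD and PTPRG higher (adjusted p = 0.0103 and 0.00565), and 15.1% of all genes tested. These calls in PEO1 and in the difference therefore do not set the 13 apart from all genes tested. The medians of the 13 were -0.36 in COV362 and 0.27 in PEO1, against -0.44 and -0.14 over the 163.

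FHIT, a hydrolase of diadenosine triphosphate at the best-known fragile site, was weakly expressed. Its level was 0.819, 0.617 and 0.765 CPM in COV362 prexasertib, against 2.06, 1.04 and 0.847 CPM in COV362 DMSO. PEO1 gave 2.17, 1.59 and 1.93 CPM in prexasertib, against 0.979, 1.52 and 0.605 CPM in DMSO. In COV362 all treated libraries were below the untreated ones and in PEO1 all were above, with log2 changes of -0.78 ± 0.49 (adjusted p = 0.563) and 0.87 ± 0.45 (adjusted p = 0.161). The difference of 1.65 ± 0.66 between them did not pass (adjusted p = 0.142).

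WWOX, an oxidoreductase lost in some tumours, had 7.37, 8.14 and 9.48 CPM in COV362 prexasertib, against 10.6, 10.9 and 8.02 CPM in COV362 DMSO. In PEO1 it had 11.7, 6.15 and 7.67 CPM in prexasertib, against 11.5, 5.48 and 6.05 CPM in DMSO, where library A was the highest in each group. The groups overlapped in both lines, and the log2 changes of -0.24 ± 0.30 and 0.16 ± 0.30 were within the spread. DMD, which encodes dystrophin, averaged 2.75 ± 0.482 CPM in COV362 prexasertib and 3.60 ± 0.591 CPM in COV362 DMSO, and 21.2 ± 0.547 CPM in PEO1 prexasertib and 21.4 ± 4.13 CPM in PEO1 DMSO. AUTS2, a neuronal chromatin regulator, averaged 37.1 ± 3.23 CPM in COV362 prexasertib and 49.6 ± 3.78 CPM in COV362 DMSO, and 11.7 ± 1.55 CPM in PEO1 prexasertib and 14.8 ± 1.01 CPM in PEO1 DMSO.

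NBEA, a vesicle-traffic scaffold, had 3.93, 7.36 and 4.71 CPM in PEO1 prexasertib, against 1.17, 2.99 and 2.03 CPM in PEO1 DMSO, with no overlap (1.36 ± 0.53, adjusted p = 0.0709, and 0.00135 with the block). DPYD, the first enzyme of pyrimidine breakdown, had 7.53, 24.2 and 18.0 CPM in COV362 prexasertib, against 21.7, 41.5 and 30.4 CPM in COV362 DMSO, and the groups overlapped while each letter was lower (-0.91 ± 0.34, adjusted p = 0.267, and 0.00326 with the block). PARK2, the ubiquitin ligase parkin, reached 18 counts over COV362 prexasertib and 41 over COV362 DMSO, and at most 4 over a PEO1 group. MACROD2 and DLG2 averaged at most 1.16 CPM in any group. IMMP2L, a mitochondrial inner-membrane peptidase subunit, and LARGE, a glycosyltransferase of dystroglycan, were called in neither line (adjusted p between 0.367 and 0.674).

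**Figure D4:**
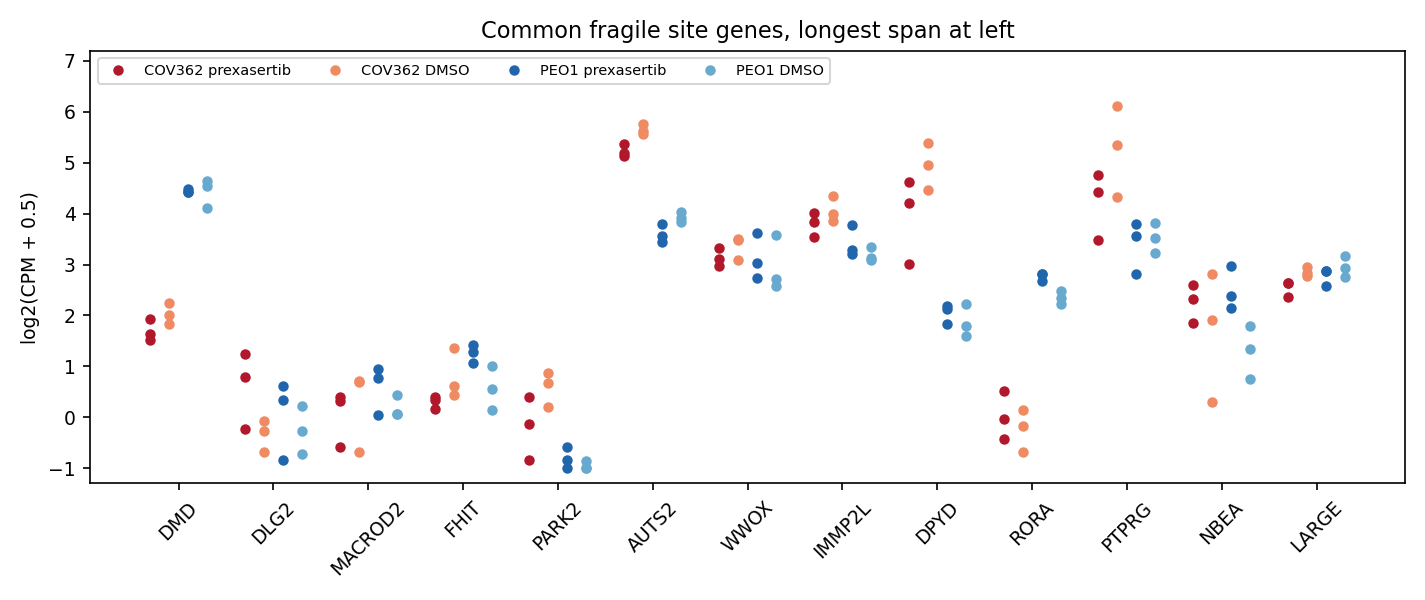
Level of the 13 listed common fragile site genes on a log2(CPM + 0.5) scale (y axis), ordered from the longest span at left, with 1 point per library and colours for the 4 groups. The points of a gene's drug and vehicle libraries lie close together in most genes, whereas DMD and RORA are higher in PEO1 and PARK2, AUTS2, DPYD and PTPRG higher in COV362.

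Whether the lines differed in their drug change was tested directly, as the change in PEO1 minus that in COV362. Of 172 members, 11 were called higher and 2 lower, 7.56% in all, against 3.14% higher, 2.97% lower and 6.1% in all of the genes tested. The median difference was 0.26 over the 163, against 0.03 over all genes, and with exon length corrected it was 0.05 with 9 higher and 7 lower. Leaving out 1 library gave between 4 and 19 calls: 4 without COV362 DMSO B, PEO1 DMSO A, B or C or PEO1 prexasertib B, 5 without COV362 prexasertib C or PEO1 prexasertib A, 7 without PEO1 prexasertib C and 8 without COV362 DMSO C. NEGR1, CDKAL1 and HDAC9 were the 3 of 13 called in every such fit.

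HDAC9 differed most clearly. In COV362 it had 18.1, 29.0 and 21.7 CPM in prexasertib, against 24.3, 37.1 and 29.7 CPM in DMSO, lower at each letter but overlapping, with a log2 change of -0.41 ± 0.28. In PEO1, as given above, it rose by 1.90, and the difference was 2.31 ± 0.40 (adjusted p = 0.00738). CDKAL1, which modifies lysine transfer RNA, had 27.8, 32.7 and 26.3 CPM in COV362 prexasertib, against 42.9, 43.3 and 44.1 CPM in COV362 DMSO, and 18.6, 19.2 and 18.5 CPM in PEO1 prexasertib, against 12.4, 14.1 and 14.4 CPM in PEO1 DMSO. Neither pair of groups overlapped, and the changes of -0.59 ± 0.13 and 0.46 ± 0.14 differed by 1.05 ± 0.19 (adjusted p = 0.00909). NEGR1 had 5.90, 6.23 and 8.48 CPM in COV362 prexasertib, against 7.26, 8.11 and 6.65 CPM in COV362 DMSO, overlapping, and the difference between the lines was 1.13 ± 0.23 (adjusted p = 0.0146).

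ZBTB20, a zinc-finger repressor, had 9.83, 15.9 and 9.71 CPM in COV362 prexasertib, against 14.8, 23.1 and 16.4 CPM in COV362 DMSO, and 18.6, 25.4 and 19.3 CPM in PEO1 prexasertib, against 13.4, 8.52 and 9.73 CPM in PEO1 DMSO. Its changes were -0.62 ± 0.25 and 0.9995 ± 0.25, and they differed by 1.62 ± 0.36 (adjusted p = 0.0206). KIAA1217, known as sickle tail from mouse spine development, averaged 60.5 ± 6.65 CPM in COV362 prexasertib and 79.0 ± 13.0 CPM in COV362 DMSO, and 40.8 ± 5.18 CPM in PEO1 prexasertib and 28.7 ± 1.14 CPM in PEO1 DMSO (difference 0.89 ± 0.21, adjusted p = 0.0273). LPP, a LIM protein of focal adhesions, averaged 34.9 ± 4.44 CPM in COV362 prexasertib and 51.8 ± 7.09 CPM in COV362 DMSO, and 86.1 ± 11.9 CPM in PEO1 prexasertib and 74.9 ± 2.04 CPM in PEO1 DMSO (0.77 ± 0.21, adjusted p = 0.0437).

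LAMA2, CREB5 and ADGRV1 had the larger increase in PEO1. In COV362, LAMA2 had 2.87, 4.69 and 3.41 CPM in prexasertib, against 2.30, 2.25 and 1.89 CPM in DMSO (0.78 ± 0.26, adjusted p = 0.212), and CREB5 had 6.06, 10.2 and 9.07 CPM in prexasertib, against 4.11, 5.75 and 4.56 CPM in DMSO (0.80 ± 0.22, adjusted p = 0.124, and 0.0109 with the block). In neither gene did the groups overlap. The differences between the lines were 1.51 ± 0.36 for LAMA2 (adjusted p = 0.0276), 1.39 ± 0.31 for CREB5 (0.0199) and 1.98 ± 0.50 for ADGRV1 (0.0361). CNTN5 differed by 5.49 ± 1.29 (adjusted p = 0.0267), but with 1 count over COV362 prexasertib and 9 over COV362 DMSO, a ratio of 0.102 with a 95% counting interval of 0.00234 to 0.739. It was a member only through PEO1 prexasertib, where it was high, so this difference is given as a description. The MARCHF1 row had 281 counts in COV362 prexasertib and 451 in COV362 DMSO, and 51 in PEO1 prexasertib and 15 in PEO1 DMSO, where the groups overlapped. Its changes differed by 2.51 ± 0.67 (adjusted p = 0.0435).

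Only NRG1 and KAZN had the lower value in PEO1. NRG1 encodes neuregulin, the growth factor that binds ERBB3 and ERBB4. It had 25.5, 38.0 and 34.5 CPM in COV362 prexasertib, against 35.3, 39.3 and 38.2 CPM in COV362 DMSO, overlapping, and 15.3, 21.6 and 19.2 CPM in PEO1 prexasertib, against 44.5, 42.2 and 38.0 CPM in PEO1 DMSO, far apart. The changes were -0.20 ± 0.17 and -1.15 ± 0.17, a difference of -0.95 ± 0.24 (adjusted p = 0.0368). KAZN had 23.1, 20.9 and 22.1 CPM in COV362 prexasertib, against 31.1, 27.6 and 36.8 CPM in COV362 DMSO, without overlap (-0.53 ± 0.14, adjusted p = 0.11, and 0.00687 with the block), and the difference was -0.78 ± 0.20 (adjusted p = 0.0396).

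Set side by side, the 26 genes called lower in PEO1 had a median of -0.45 in COV362, with 24 below 0 and 2 above and 10 called lower there with the block. The 16 called higher in PEO1 had a median of -0.07 in COV362, with 9 below 0 and 7 above and 3 called lower there with the block. Over all 163 genes, 133 were below 0 in COV362 and 39 were called lower there with the block (23.9%), against 5.45% of all genes tested. Whether the genes called in PEO1 differ from the other very long genes in this was not tested.

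Promoter sequences are given for 5 of these genes, picked by hand and not by a rule. HDAC9, ZBTB20 and KIAA1217 rose in PEO1 and were below 0 in COV362, and KAZN and SLIT3 were lower in both. Of the 16 genes called higher in PEO1, 9 were below 0 in COV362, and the rest of these, such as CDKAL1, are not shown. All 3 rising genes shown hold a match to the letters below, so the 5 windows cannot stand for the genes that moved alike. Each window runs from 250 bases before to 50 bases after the RefSeq start (GRCh38.p14), written 5′ to 3′ on the gene's strand. Capitals mark a match to the AP-1 letters TGANTCA or the CRE letters TGACGTCA on either strand, and KAZN and SLIT3 have none. N stands for any base, which is looser than the usual AP-1 site with C or G there. The ZBTB20 match has G at that base, whereas the HDAC9 match has T and so is not the usual site. HDAC9 is chr7:18495499-18495798 (plus strand, AP-1), ZBTB20 chr3:114900576-114900875 (minus strand, AP-1), KIAA1217 chr10:23694477-23694776 (plus strand, CRE), KAZN chr1:14598435-14598734 (plus strand) and SLIT3 chr5:169301090-169301389 (minus strand). The HDAC9 and ZBTB20 windows lie inside the counted span, whose outermost exons begin farther upstream, so their counts also cover other starts.
HDAC9: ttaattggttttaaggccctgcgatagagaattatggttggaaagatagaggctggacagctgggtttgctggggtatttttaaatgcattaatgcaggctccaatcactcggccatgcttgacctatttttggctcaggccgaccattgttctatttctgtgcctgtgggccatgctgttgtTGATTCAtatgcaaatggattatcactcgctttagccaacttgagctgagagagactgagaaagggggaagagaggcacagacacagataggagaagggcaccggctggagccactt
ZBTB20: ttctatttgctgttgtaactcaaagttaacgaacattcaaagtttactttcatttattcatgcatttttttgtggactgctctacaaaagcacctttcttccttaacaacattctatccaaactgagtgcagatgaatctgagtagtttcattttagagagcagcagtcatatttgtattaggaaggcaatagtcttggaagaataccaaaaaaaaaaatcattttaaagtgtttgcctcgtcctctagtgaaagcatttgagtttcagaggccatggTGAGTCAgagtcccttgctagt
KIAA1217: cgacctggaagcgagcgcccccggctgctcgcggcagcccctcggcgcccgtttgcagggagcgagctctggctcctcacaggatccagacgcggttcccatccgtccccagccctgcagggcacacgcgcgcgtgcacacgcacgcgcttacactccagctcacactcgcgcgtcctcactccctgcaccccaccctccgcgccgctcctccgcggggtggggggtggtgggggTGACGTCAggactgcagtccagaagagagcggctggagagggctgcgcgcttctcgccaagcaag
KAZN: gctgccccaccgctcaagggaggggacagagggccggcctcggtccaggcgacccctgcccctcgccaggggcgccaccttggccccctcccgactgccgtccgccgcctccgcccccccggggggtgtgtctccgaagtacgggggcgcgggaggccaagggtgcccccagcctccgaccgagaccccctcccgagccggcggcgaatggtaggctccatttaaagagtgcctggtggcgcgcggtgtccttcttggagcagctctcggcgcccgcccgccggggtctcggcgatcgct
SLIT3: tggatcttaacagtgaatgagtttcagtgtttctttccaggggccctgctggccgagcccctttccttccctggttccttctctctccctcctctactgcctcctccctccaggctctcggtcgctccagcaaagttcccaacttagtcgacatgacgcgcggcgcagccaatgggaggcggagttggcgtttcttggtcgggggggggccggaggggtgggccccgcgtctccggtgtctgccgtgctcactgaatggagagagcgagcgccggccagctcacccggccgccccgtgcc

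Of the 165 genes, 146 had a window in the RefSeq table. The AP-1 letters were in 10 of them (6.85%), against 7.71% of the 35116 windows in the table, the CRE letters in 2 (KIAA1217 and LPP; 1.37%, against 1.85%) and the E2F letters TTTGGCGC in 1 (0.685%, against 0.652%). Among 14 matched genes called higher in PEO1, 3 held the AP-1 letters (ERC2, ZBTB20 and HDAC9), and among 20 called lower, 0 did. The windows of the very long genes had a median GC content of 65.8%, against 58.7%. A match is a description of letters and says nothing of binding.

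Without the drug, the lines differed widely in these genes. PEO1 DMSO against COV362 DMSO gave 44 members higher and 67 lower of 172, where 29.1% of all genes tested were higher and 28.6% lower, 57.7% in all. As shares of 172 these are 25.6% and 39.0%. The groups did not overlap in 50 members that were higher in PEO1 and 69 that were lower. These are 29.1% and 40.1% of 172, against 32.4% and 31.1% of all genes tested. The median was -0.40, against -0.01 over all genes. These DMSO libraries are also the controls of the drug comparisons.

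Several members had few or no counts in 1 of the DMSO groups. THSD7B, a thrombospondin-repeat protein, had 7.77, 10.97 and 11.3 CPM in PEO1 DMSO and 0 counts in COV362 DMSO, at least 142-fold higher where 3 counts over the group are the floor. CNTN4, a contactin, was at least 22.6-fold higher (84 counts against 0), and CPNE4, a copine of calcium-dependent membrane binding, had 97 counts against 1, a ratio of 78.2 with a 95% counting interval of 13.7 to 3120. SPOCK1, a secreted proteoglycan, was well measured in both lines, at 91.5, 92.7 and 103 CPM in PEO1 DMSO, against 1.69, 3.12 and 2.35 CPM in COV362 DMSO (log2 difference 5.27 ± 0.23, adjusted p = 4.16e-10). Prexasertib left it uncalled in both lines. THSD7B, CNTN4 and CPNE4, by contrast, reached the count needed for membership in PEO1 libraries alone. They were members only through the line where they were high, so their differences are given as a description.

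Among genes lower in PEO1, SOX5 had 0 counts in PEO1 DMSO and 6.41, 14.95 and 6.19 CPM in COV362 DMSO, at least 174-fold lower. MIR99AHG, a long noncoding host gene of microRNAs, was at least 73.2-fold lower (0 counts against 177), and ERBB4, a receptor for neuregulin, at least 34.3-fold lower (0 against 83). TSHZ2, a teashirt zinc-finger factor, had 2 counts against 531, 329-fold lower with a 95% counting interval of 90.7 to 2726. SOX5, MIR99AHG, ERBB4 and TSHZ2 reached the count needed for membership in COV362 libraries alone. They were members only through the line where they were high, so their differences are given as a description too. NRG1, the ligand of ERBB4, had 44.5, 42.2 and 38.0 CPM in PEO1 DMSO, against 35.3, 39.3 and 38.2 CPM in COV362 DMSO, which overlapped.

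Of the 14 transcription regulators, 2 were called higher in PEO1 DMSO and 11 lower, with a median of -1.64, against 29.1% higher and 28.6% lower of all genes tested. HDAC9 was among them, at 2.81, 6.95 and 6.98 CPM in PEO1 DMSO, against 24.3, 37.1 and 29.7 CPM in COV362 DMSO (-2.44 ± 0.30, adjusted p = 9.82e-06). Cytoskeleton and traffic genes had 11 higher and 6 lower of 29 and a median of 0.24, including SYNE1 at 1.56 ± 0.29. Of the fragile site genes, DMD and RORA were higher and PARK2, IMMP2L, AUTS2, DPYD and PTPRG lower. DMD averaged 21.4 ± 4.13 CPM in PEO1 DMSO and 3.60 ± 0.591 CPM in COV362 DMSO (2.59 ± 0.21, adjusted p = 1.98e-07). PTPRD, the longest member and a receptor phosphatase of synapse formation, averaged 2.95 ± 0.638 CPM in PEO1 DMSO and 14.5 ± 6.16 CPM in COV362 DMSO (-2.31 ± 0.34, adjusted p = 6.04e-05).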

How the data were processed

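Polyadenylated RNA of 12 libraries was sequenced without strand (TruSeq RNA Library Prep Kit v2, per the labels' protocols). STAR, featureCounts 1.4.6 of Subread and genome build hg38 were used, per the submitters' processing notes, with their order and settings not given in the sources used here. Per the file headers, the authors deposited 1 table with unnormalised counts and exon coordinates for each gene. Handling of reads that match several genes is not stated, so genes that share exon bases are uncertain.

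Differences were tested in edgeR 4.0.16 (R 4.3.3) by the quasi-likelihood F-test on 1 fit of 4 group means with 8 residual degrees of freedom, TMM scaling and filterByExpr (minimum count 10, minimum total 15), which left 14498 genes. A gene was called at a BH-adjusted p under 0.05 over all of them. Folds against 0 counts used 3 counts over the group as the floor, and floors and 95% intervals cover counting error only. Alternatives included DESeq2 1.42.0, limma 3.58.1, a letter block shared by all 12 libraries, loess offsets on exon length and leaving out each library. The fit was tested on simulated counts. Letters pair samples where every same-letter correlation of deviations exceeds 0.1: they did in COV362 (0.41, 0.42 and 0.13) and between the DMSO groups (0.35, 0.16 and 0.15), and not in PEO1 (0.30, 0.17 and 0.08).

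Members, role lists and tests were chosen with earlier results of these data known. Named genes are the 6 highest and 6 lowest called members averaging 1 CPM per drug comparison, 4 of each between the lines, the 3 longest, the 5 with the highest RPKM and the fragile site genes. Other called members, and genes called with the block, were named after their values were seen. Promoter windows came from the RefSeq table of GRCh38.p14, matched by symbol.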

Additional observations from a re-analysis of the deposited data

Results flagged for a closer look

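The change under prexasertib differed between PEO1 and COV362 by the edgeR test of the difference itself in 13 very long genes. On the log2 scale, as PEO1 minus COV362, the value was higher in CNTN5 (5.49), the MARCHF1 row listed as 1-Mar (2.51), HDAC9 (2.31), ADGRV1 (1.98), ZBTB20 (1.62), LAMA2 (1.51), CREB5 (1.39), NEGR1 (1.13), CDKAL1 (1.05), KIAA1217 (0.89) and LPP (0.77), and lower in NRG1 (-0.95) and KAZN (-0.78). HDAC9, NEGR1 and CDKAL1 kept the call in all 12 fits that left out 1 library, whereas ADGRV1 and LPP lost it in 10 of them, the MARCHF1 row in 9, KAZN, LAMA2 and NRG1 in 8, CNTN5 and KIAA1217 in 7 and CREB5 and ZBTB20 in 5. Against a minimum of 1.5-fold (glmTreat), only HDAC9 was called of the 13. CNTN5 was a member only through PEO1 prexasertib, where it was high, so its value is a description.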

How the results depend on the processing

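Counts and medians here cover the members tested under each setting, including those that join separate loci: 172 in the unaltered fit, where the median difference between the lines was 0.21, 497 for spans of at least 300000 bases, 34 for spans of at least 1000000 bases and 143 to 174 under the others. In COV362 the count of called members, 0 in the unblocked edgeR fit, was 1 with no filter, 41 with the replicate block, 52 with a block within each line (chosen after seeing the data), 6 with exon length corrected, 32 with the block and exon length, 9 without the 4 A libraries, 1 by limma-voom, 17 by DESeq2 and 7 among genes spanning at least 300000 bases, and 0 to 2 when 1 library was left out. The median stayed between -0.51 and -0.34 when 1 library was left out. In PEO1 exon length moved the median to -0.26, and the block with exon length gave 75 calls and a median of -0.27. A 1.5-fold minimum left 16 calls, an adjusted p under 0.01 left 28, and spans of at least 1000000 bases 4 calls and a median of -0.0185. Leaving out 1 library gave 33 to 50 calls and medians of -0.31 to -0.11, and 29 of 42 called genes at 1 locus kept their call in all 12 such fits. The PEO1 letters failed the pairing rule at C alone, with same-letter correlations of 0.30, 0.17 and 0.08 at A, B and C. The block there called 23 members higher and 38 lower, against 24 and 23.8% of all genes tested. For the difference between the lines, the block gave 37 calls, the block within each line 43, the block with exon length 41 and a median of 0.047, DESeq2 21, the 1.5-fold minimum 1 and an adjusted p under 0.01 2. Exon length alone took that median to 0.034, and leaving out 1 library gave 4 to 19 calls and medians of 0.040 to 0.37. Between the DMSO groups, genes of at least 300000 bases had a median of -0.19, the block moved the count by less than 1.5 times, and leaving out 1 library gave 98 to 115 calls and medians of -0.44 to -0.28.

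Direction turned in 6 fragile site genes, in comparisons where none of these was called without the block. In PEO1, DMD was 0.0048 with the block within each line and 0.0013 by limma-voom, and PTPRG was 0.012 without the 4 A libraries. With 1 library left out, PEO1 values ran from -0.21 to 0.043 in DMD (above 0 without PEO1 DMSO C), -0.20 to 0.51 in WWOX (below 0 without PEO1 DMSO B or C or prexasertib A), -0.027 to 0.34 in DPYD (below 0 without PEO1 DMSO A) and -0.38 to 0.098 in PTPRG (above 0 without PEO1 DMSO B or prexasertib A). In COV362 they ran from -0.16 to 1.04 in NBEA (below 0 without COV362 DMSO A) and from -0.16 to 0.95 in RORA (below 0 without COV362 prexasertib B). The cause of these shifts was not tested. Over all single genes, 1910 values kept direction and call, 187 lost the call, 50 gained one and 12 turned. Depth limits the weakest members: 19 of 165 averaged under 0.1 RPKM.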
